A study of Mus musculus with 24 samples.

Results

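The cornea and the lens, the transparent tissues at the front of the mouse eye, were compared by their mature miRNA. Of the 24 miRNA microarrays of the series, 6 were taken by their tissue label, 3 of cornea and 3 of lens, 1 array for each tissue in each of 3 lens groups. All tissues came from the right eyes of male C57BL/6J mice. The group labelled Control was normal eyes without a spectacle lens, the group labelled 0D had a plano lens and the group labelled Lens-induced had a lens that the methods give as -30 D, fixed at 3 weeks of age and worn for 3 weeks. RNA of 3 mice was pooled for each array of the normal and -30 D eyes, and pooling is not stated in the sources used here for the 0 D eyes, so that an array is not 1 animal. Each slide held 1 lens group, so that the effects of slide and of lens wear cannot be told apart. Cornea was therefore compared with lens within each lens group, and the 3 lens groups served as the 3 replicates of each tissue. For cornea against lens, the p-values measure the spread of the tissue difference over these 3 pairs, in which lens wear, slide and pool vary together. Where it is said that both tissues stood apart from the rest of the eye, the 12 arrays of iris, retina, choroid and sclera were used beside them. The p-values of that comparison come from a fit to all 24 arrays and measure the spread left within all tissues of the series, brain included.

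The cornea is covered by a stratified epithelium that lies on a collagen stroma with keratocytes and on an inner endothelial layer. The lens is made of one epithelial layer and of fiber cells that lose their organelles as they mature, inside a capsule. Both lack blood vessels, and the lens and the corneal epithelium both arise from surface ectoderm, whereas the corneal stroma comes from neural crest. A miRNA binds messenger RNAs mainly through its seed, the bases 2 to 8 from its 5′ end, and lowers their translation or stability, so that miRNAs with 1 seed form a family with overlapping targets. In whole-tissue RNA, fewer cells of a type and less RNA per cell cannot be told apart.

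Of 1881 mouse miRNAs on the array, 215 were detected on at least 1 of the 6 arrays, 93 on all 6 and 1666 on none. A miRNA counted as detected where at least 1 of its probes exceeded 3 times its own error. Between 137 and 172 miRNAs were detected on a cornea array and between 129 and 149 on a lens array, against 213 to 245 on the arrays of the other ocular tissues. Signals are given in arbitrary units after each array was scaled by the miRNAs detected on all 24 arrays. The lens arrays had to be scaled up more than the cornea arrays, by 0.41 to 0.97 on the log2 scale within a lens group, so that each tissue difference is relative to these miRNAs. Without scaling, the median difference of all tested miRNAs moved by 0.62 on the log2 scale towards cornea.

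The mature sequences below are those of the miRNAs on which the comparison turned, from RefSeq (build GRCm38.p6), written 5′ to 3′ with the seed in capitals. A RefSeq mature sequence of the same name was found for 141 of the 165 miRNAs tested. The first set was bright in both tissues relative to the rest of the eye.
miR-184-3p: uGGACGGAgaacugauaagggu
miR-31-5p: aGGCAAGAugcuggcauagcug
miR-20a-5p: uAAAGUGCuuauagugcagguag
The gene of miR-184-3p lies at chr9:89802263-89802284 on the minus strand and that of miR-31-5p at chr4:88910614-88910635 on the minus strand, both outside the span of any protein-coding gene, and miR-20a-5p lies at chr14:115044183-115044205 on the plus strand in the miR-17/92 cluster.
The second set was detected on every cornea array and on no lens array, and shows that the 5 members of the miR-200 family carry only 2 seeds.
miR-205-5p: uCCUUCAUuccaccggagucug
miR-200b-3p: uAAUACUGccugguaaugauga
miR-200c-3p: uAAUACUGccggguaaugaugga
miR-429-3p: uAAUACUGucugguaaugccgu
miR-200a-3p: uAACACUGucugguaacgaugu
miR-141-3p: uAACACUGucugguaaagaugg
miR-429-3p, miR-200a-3p and miR-200b-3p lie together at chr4:156053916-156055706 on the minus strand, and miR-141-3p and miR-200c-3p at chr6:124717917-124718346 on the minus strand. The sequence of miR-205-5p lies at chr1:193507503-193507524 on the minus strand.
The third set was brighter in lens, and is shown for the runs of G that several of its members hold.
miR-8110: aAGCGUGGauugggggggggg
miR-5126: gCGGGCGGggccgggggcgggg
miR-6538: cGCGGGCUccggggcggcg
miR-211-3p: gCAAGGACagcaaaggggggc
miR-181b-5p: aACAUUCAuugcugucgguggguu
miR-211-3p lies inside the span of Trpm1, at chr7:64205868-64205888 on the plus strand. miR-5126 lies inside the span of Dner (chr1:84695890-84695911, plus strand), and miR-6538 inside that of Rnf144a (chr12:26414970-26414988, minus strand).

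A few miRNAs gave most of the signal in both tissues. miR-6366 held 43.6% ± 2.47 (SD, n = 3) of the summed signal of detected miRNAs in cornea and 63.9% ± 0.818 in lens. miR-184-3p, the miRNA best known from the corneal epithelium and the lens, came next in cornea with 27.7% ± 2.41 and was the fourth in lens with 6.2% ± 1.05. miR-3963 held 4.94% ± 0.731 in cornea and 8.55% ± 0.889 in lens, and miR-5100 held 3.73% ± 0.152 in cornea and 9.0% ± 0.309 in lens. These 4 miRNAs together held 78.8% to 81.9% of the signal on the cornea arrays and 87.0% to 88.4% on the lens arrays. Signals of different miRNAs come from different probes, so these shares describe the arrays and do not rank molecule numbers. Below them, the 10 brightest miRNAs of cornea held let-7b-5p, let-7c-5p, miR-205-5p, miR-21a-5p, miR-29a-3p and let-7a-5p, whereas those of lens held miR-8110, miR-3960, miR-5126, miR-3968, miR-204-5p and miR-1224-5p.

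The first question was what cornea and lens had in common against iris, retina, choroid and sclera. Of 308 miRNAs tested, 212 differed between the mean of both tissues and the mean of the other 4 at an adjusted p under 0.05 (68.8% of those tested), 87 of them higher in cornea and lens (28.2%) and 125 lower (40.6%). This split rested on the scaling, because the arrays of the other tissues were scaled by -1.01 to 0.22 on the log2 scale and those of cornea and lens by 0.69 to 1.65. Without scaling, 39 were higher and 195 lower, and the median difference of the tested miRNAs moved by -0.82. The move was larger for miRNAs well above the floor in every ocular tissue, such as miR-103-3p, from -1.38 to -2.92. With each array's own floor for undetected miRNAs the split was 168 higher and 92 lower, with a floor of 0.1 it was 69 and 205, and after normexp background correction it was 74 and 199. A miRNA was called shared only where both cornea and lens lay on the same side of the means of all 4 other tissues. This held for 22 of the higher miRNAs, 19 of them detected on all 6 arrays, and for 38 of the lower ones, 21 of them detected on all 6. Without scaling, 12 of the 22 were still called higher and 4 turned direction, and all 38 were still called lower. Leaving out the scaling moves the differences towards lower in cornea and lens, so that it is no check of the 38. Some of the 38, such as miR-101c, were on no cornea and no lens array and entered the test only through the other tissues.

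miR-184-3p was the miRNA with the largest shared excess among those detected on all 6 arrays. Its signal was 36854 (normal), 29710 (0 D) and 34076 (-30 D) on the cornea arrays and 16120, 11130 and 16390 on the lens arrays. It lay between 505 and 550 in iris, 32.6 and 70.5 in retina, 99.7 and 147 in choroid and 111 and 275 in sclera. Every cornea and lens array was above every array of the other 4 tissues, with a mean log2 difference of 7.22 ± 0.16 (SE, adjusted p = 1.3e-15), and of 5.68 without scaling. Between the transparent tissues it was higher in cornea, by 1.22 ± 0.11 on the log2 scale (adjusted p = 6.2e-04), on each of the 3 pairs.

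miR-31-5p, a miRNA of squamous epithelia, was the next. It read 273, 256 and 211 in cornea and 370, 321 and 358 in lens, against 18.6 to 20.2 in iris and 22.1 to 24.6 in choroid, no detection in retina and detection on 2 of 3 sclera arrays at 8.76 or less. The difference of both tissues from the rest was 4.33 ± 0.11 on the log2 scale (adjusted p = 4.9e-15). Cornea and lens lay near each other in miR-31-5p. The difference of -0.51 ± 0.12 was called higher in lens (adjusted p = 0.017), but the sign turned without scaling to 0.12, and the call was lost without the normal pair (adjusted p = 0.057) or without the -30 D pair (adjusted p = 0.059). The other strand of its hairpin, miR-31-3p, read 45.4 to 58.7 in cornea and 26.1 to 42.1 in lens and was detected on 1 of the 12 arrays of the other tissues. It was higher in cornea than in lens by 0.80 ± 0.16 (adjusted p = 0.0083).

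Among the other shared miRNAs was miR-20a-5p of the miR-17/92 cluster, known for its part in cell proliferation. It read 186 to 207 in cornea and 436 to 532 in lens, against 93.2 to 103 in iris and at most 65.2 in the other tissues, and differed from them by 2.58 ± 0.07 (adjusted p = 2.5e-14). In the mean of cornea and lens, all 9 tested members of the miR-17/92 and paralogous clusters were called higher than in the other tissues, with a median log2 difference of 0.89 beside -0.04 over all tested miRNAs, but only 4 were above all 4 other tissues in both cornea and lens (miR-20a-5p, miR-19b-3p, miR-93-5p and miR-106b-5p). Over all tested miRNAs, 28.2% were called higher. miR-18a-5p and miR-19a-3p were on no cornea array, miR-20b-5p was lower in cornea than in iris, miR-92a-3p was lower in cornea than in retina, and miR-25-3p was lower in lens than in retina, choroid and sclera. Without scaling, 3 of the 9 were called higher and 2 lower. miR-212-3p, a miRNA induced by CREB in neurons, read 16.9 to 22.4 in cornea and 126 to 127 in lens, and at most 12.1 in the other tissues (2.29 ± 0.05, adjusted p = 2.0e-15). The remaining shared miRNAs of high excess, miR-3968, miR-5100, miR-6366, miR-6368, miR-3963 and miR-652-5p, differed by 2.46 to 3.21, and all 6 were brighter in lens than in cornea. For miR-3968 the sign turned with the total signal that the scanner software prints for each miRNA, to -0.63. miR-6366 was the brightest miRNA of each array, which quantile normalization sets equal, so that it shows no difference there. miR-7047-5p was among the 10 with the largest excess (2.46 ± 0.20, adjusted p = 1.2e-08), but its cornea range of 51.0 to 69.7 overlapped with that of sclera, 41.4 to 89.1.

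**Figure D1:**
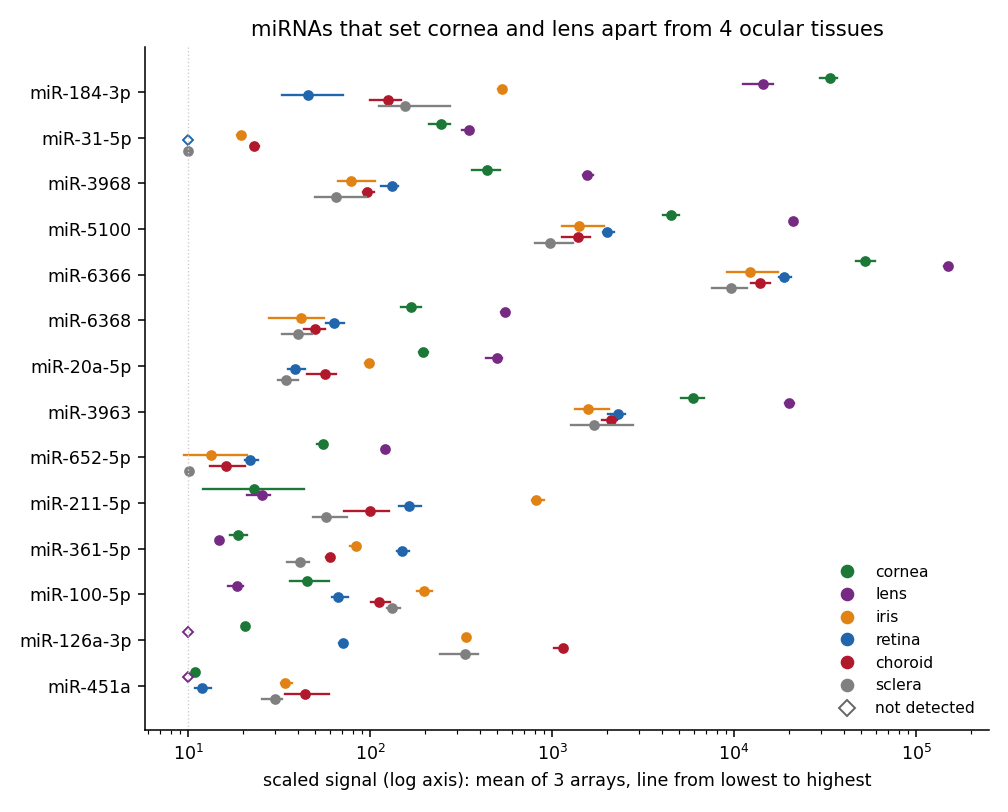
Scaled signal on a log axis of miRNAs that set cornea and lens apart from iris, retina, choroid and sclera, 3 arrays a tissue; points are means on the log2 scale with values under the floor of 9.93 (dotted line) raised to it, lines run from the lowest to the highest array where all 3 detected the miRNA, and diamonds mark tissues with no detection. The upper 9 rows have cornea (green) and lens (purple) to the right of all other tissues, led by miR-184-3p at a log2 difference of 7.22, and the lower 5 rows have them to the left.

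The shared low miRNAs included 1 miRNA of the endothelium list and 1 of the 3 tested blood cell miRNAs. miR-126a-3p, the miRNA of the Egfl7 gene in endothelial cells, was detected on 1 of 3 cornea arrays (the -30 D array, at 86.5) and on no lens array. It read 329 to 350 in iris, 67.5 to 75.1 in retina, 1030 to 1203 in choroid and 242 to 393 in sclera. The log2 difference of -4.44 ± 0.33 (adjusted p = 4.9e-09) was taken against a floor, and the 1 cornea value lay above every retina array. Its other strand, miR-126a-5p, was on no cornea and no lens array, so that neither member of the endothelium list was tested between cornea and lens. miR-451a, the miRNA of red blood cells, was on no lens array and on 2 cornea arrays at 10.8 and 12, near the floor of 9.93. It read 25.4 to 59.4 in iris, choroid and sclera, but only 11 to 13.3 in retina, a range that overlapped with cornea. Of the 7 blood cell miRNAs on the array, all 7 were undetected in lens and 5 in cornea, and their summed signal was 0 on the lens arrays and 0 to 37.5 on the cornea arrays, beside 67.3 to 123 in iris, choroid and sclera and 11 to 13.3 in retina.

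The lowest shared miRNA detected on all 6 arrays was miR-211-5p, made from the melanocyte gene Trpm1 and with the seed of miR-204-5p. It read 23.7, 12 and 43.3 in cornea and 28.2, 27.6 and 21.2 in lens, against 772 to 906 in iris, 144 to 190 in retina, 71.9 to 128 in choroid and 48.4 to 75 in sclera (-2.78 ± 0.21, adjusted p = 3.8e-09). miR-361-5p differed by -2.17 ± 0.07 and miR-100-5p by -2.03 ± 0.09, and on the printed total signal the sign of all 3 turned, to 0.32, 1.71 and 1.09. In the mean of both tissues, all 9 tested let-7 miRNAs, which hold back proliferation in differentiated cells, were called lower, with a median of -0.71, and so were all 5 tested miRNAs of the miR-30 family (median -1.15). Over all tested miRNAs, 40.6% were called lower, and the median was -0.04. Of the let-7 miRNAs 6 were below all 4 other tissues in both cornea and lens, whereas let-7b-5p and let-7f-5p in cornea and let-7e-5p in lens were not. Of the miR-30 family only miR-30c-5p and miR-30d-5p, 2 of 5, were, since cornea was not below sclera for the others. The cartilage miRNA pair miR-140-3p and miR-140-5p differed by -2.52 ± 0.07 and -2.50 ± 0.10 on the log2 scale, miR-140-3p with 1 detection in cornea and none in lens. miR-124-3p, the neuron miRNA, had a mean difference of -2.78 ± 0.27, but lens, at 105 to 390, was above iris, at 11.6 to 33.4, so that it was not a shared low miRNA. Likewise miR-3473b was low by -2.04 ± 0.18 on average, with cornea at 449 to 559 above iris and retina.

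The second question was how the transparent tissues differed from each other. Of 165 miRNAs detected on at least 3 of the 6 arrays, 135 were called at an adjusted p under 0.05 (81.8%), 69 higher in cornea (41.8%) and 66 higher in lens (40.0%). A called miRNA was thus the rule here, and the size of the difference says more than the call. The counts of called list members below are to be read beside these shares. Of the 93 miRNAs detected on all 6 arrays, 39 were called higher in cornea, 35 higher in lens and 19 were not called. All 3 cornea arrays lay above all 3 lens arrays for 43 of the 93 and below them for 34. The difference was over 4-fold in every lens group for 20 and under 2-fold in every lens group for 27. A further 27 miRNAs were on every cornea array and no lens array, 23 of them called, and 19 were on every lens array and no cornea array, all 19 called. These entered the test only through 1 tissue, with the other at the floor, so that their direction was fixed by detection. Their calls are part of the 69 and 66 and of the shares above. For several of them, such as miR-425-5p and miR-18a-5p, no bound above equal signal could be given.

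**Figure D2:**
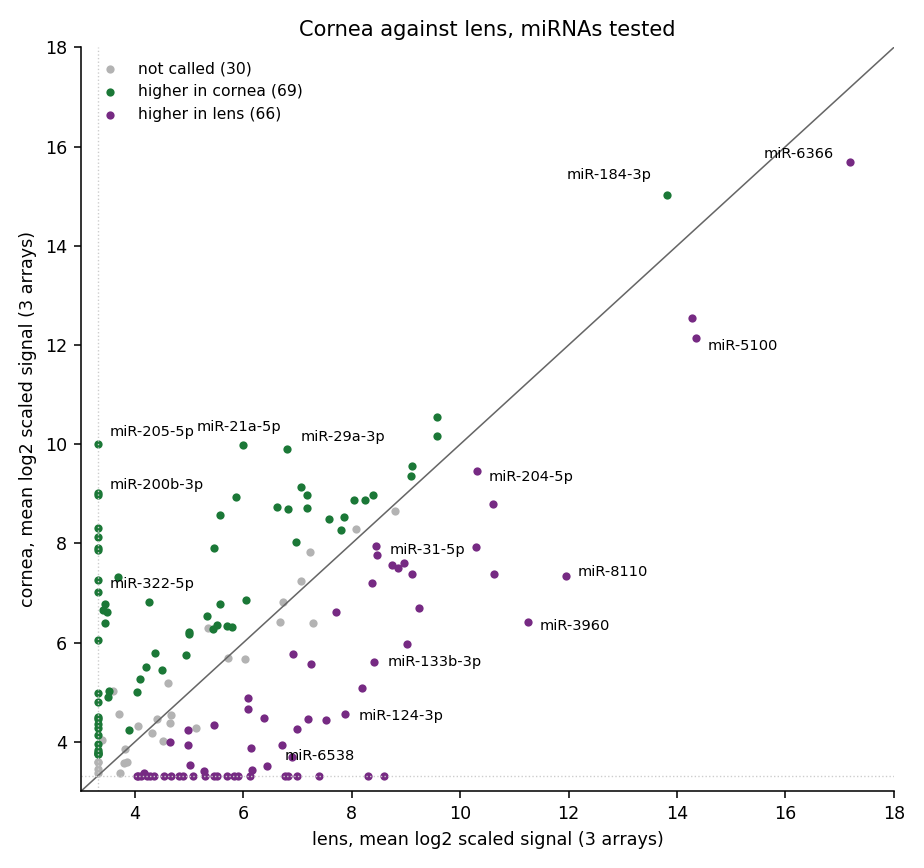
Mean log2 scaled signal of the 165 tested miRNAs in lens (horizontal axis) and cornea (vertical axis), 3 arrays each; dotted lines mark the floor at which undetected miRNAs stand, the diagonal marks equal signal, and colors give the call. The 69 miRNAs higher in cornea lie above the diagonal and the 66 higher in lens below it, and both floors hold miRNAs that are bright in the other tissue, miR-205-5p on one side and miR-6538 on the other.

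Epithelial miRNAs on every cornea array and no lens array were miR-205-5p, miR-203-3p and the miR-200 family. miR-205-5p, which is typical of the basal layer of stratified epithelia, read 1098, 1108 and 895 in cornea and was on no lens array, so that it was at least 40.8-fold higher in cornea. This bound sets the mean of the cornea arrays against the higher of the lowest detected signal of each lens array and the 3-error limit of the miRNA's own probes. miR-203-3p, which marks the differentiating upper layers, read 65.3, 71.1 and 62.1 in cornea and was at least 2.61-fold higher. Of the 5 miRNAs of the surface epithelium list, 4 were higher in cornea and 1, miR-31-5p, in lens, with a median log2 difference of 1.22. Over all tested miRNAs, 41.8% were higher in cornea and 40.0% in lens, with a median of 0.11.

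All 5 members of the miR-200 family, which maintain epithelial E-cadherin by repressing Zeb1 and Zeb2, were on every cornea array and on no lens array. miR-200b-3p read 523, 543 and 495 and was at least 20.6-fold higher, and miR-200c-3p read 545, 455 and 506 and was at least 19.8-fold higher. miR-429-3p was at least 11.1-fold, miR-141-3p at least 9.53-fold and miR-200a-3p at least 6.07-fold higher. miR-205-5p, miR-203-3p and the 5 miR-200 miRNAs were all called. They entered the test only through cornea, with every lens array at the floor, so that the call adds nothing to detection and bound. The 5 together summed to 1620 to 1780 in cornea, to 0 in lens and to 41.3 to 58.3 in iris, and to 0 in retina, choroid and sclera. Both clusters, on chromosomes 4 and 6, and both seeds moved the same way.

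The miRNAs of stroma and mesenchyme formed the next group. Of 15 on the list, 12 were tested, 11 were higher in cornea and none in lens, with a median log2 difference of 2.75 beside 0.11 over all tested miRNAs. Of all tested miRNAs, 41.8% were higher in cornea. Of the 11, miR-199a-5p, miR-199a-3p, miR-199b-5p and miR-152-3p were on no lens array and entered the test only through cornea. Their calls add nothing to detection and bound, and miR-199a-5p and miR-152-3p had no bound above equal signal. With these miRNAs at their bounds, or at equal signal where there was none, the median stayed at 2.75. miR-199b-5p, a fibroblast miRNA, read 339, 308 and 309 in cornea and was at least 12.5-fold higher there, with no detection in lens, and miR-199a-3p was at least 9.16-fold higher. miR-143-3p and miR-145a-5p, the defining miRNAs of smooth muscle, were on none of the 6 arrays. The list summed to 3962 to 4508 in cornea and 773 to 866 in lens, beside 3894 to 4130 in iris, 3277 to 4107 in retina, 4432 to 4604 in choroid and 5561 to 6603 in sclera, so that lens was the tissue with the lowest sum.

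Of the miRNAs detected on all 6 arrays, miR-21a-5p, a miRNA of growth and wound response, had the largest difference towards cornea. It read 931, 1268 and 888 in cornea and 57.8, 66.9 and 66.3 in lens, a log2 difference of 4.0 ± 0.13 (adjusted p = 3.8e-05). miR-29a-3p, which targets collagen messages, read 1061, 913 and 901 in cornea and 90.8, 128 and 119 in lens (3.10 ± 0.18, adjusted p = 1.4e-04). miR-29b-3p differed by 2.56 ± 0.13 in the same direction, whereas miR-29c-3p, with the same seed, read 78.9 to 89.6 in cornea and 89.2 to 111 in lens and was not called (-0.27 ± 0.12, adjusted p = 0.092). miR-23a-3p and miR-27a-3p, neighbours in 1 cluster, differed by 2.11 ± 0.09 and 2.08 ± 0.09. miR-23b-3p of the paralogous cluster differed by 3.0 ± 0.13, and miR-24-3p, which both clusters encode, by 1.80 ± 0.09. miR-3473b read 449, 559 and 474 in cornea and 51.6, 68.8 and 54.5 in lens (3.09 ± 0.09).

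The miR-15/16 family, which slows the cell cycle at cyclin messages, was higher in cornea throughout. All 8 miRNAs of the list that also holds miR-103-3p and miR-107-3p were called, with a median log2 difference of 2.80, or 2.40 with the miRNA undetected in lens at its bound. miR-15a-5p read 255, 243 and 225 in cornea and 39.1, 46.4 and 47.4 in lens (2.45 ± 0.13), and miR-15b-5p differed by 1.87 ± 0.15. miR-16-5p read 84.4 to 106 in cornea and was on 1 lens array, at 13.9. miR-322-5p read 136, 133 and 123 in cornea and was at least 5.11-fold higher, with no detection in lens. It entered the test only through cornea, so that its call adds nothing to this bound. Both miR-26 miRNAs and all 5 tested miR-30 miRNAs were also higher in cornea, by medians of 1.06 and 0.97. For these 3 lists, the share over all tested miRNAs was 41.8% higher in cornea, with a median of 0.11.

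**Figure D3:**
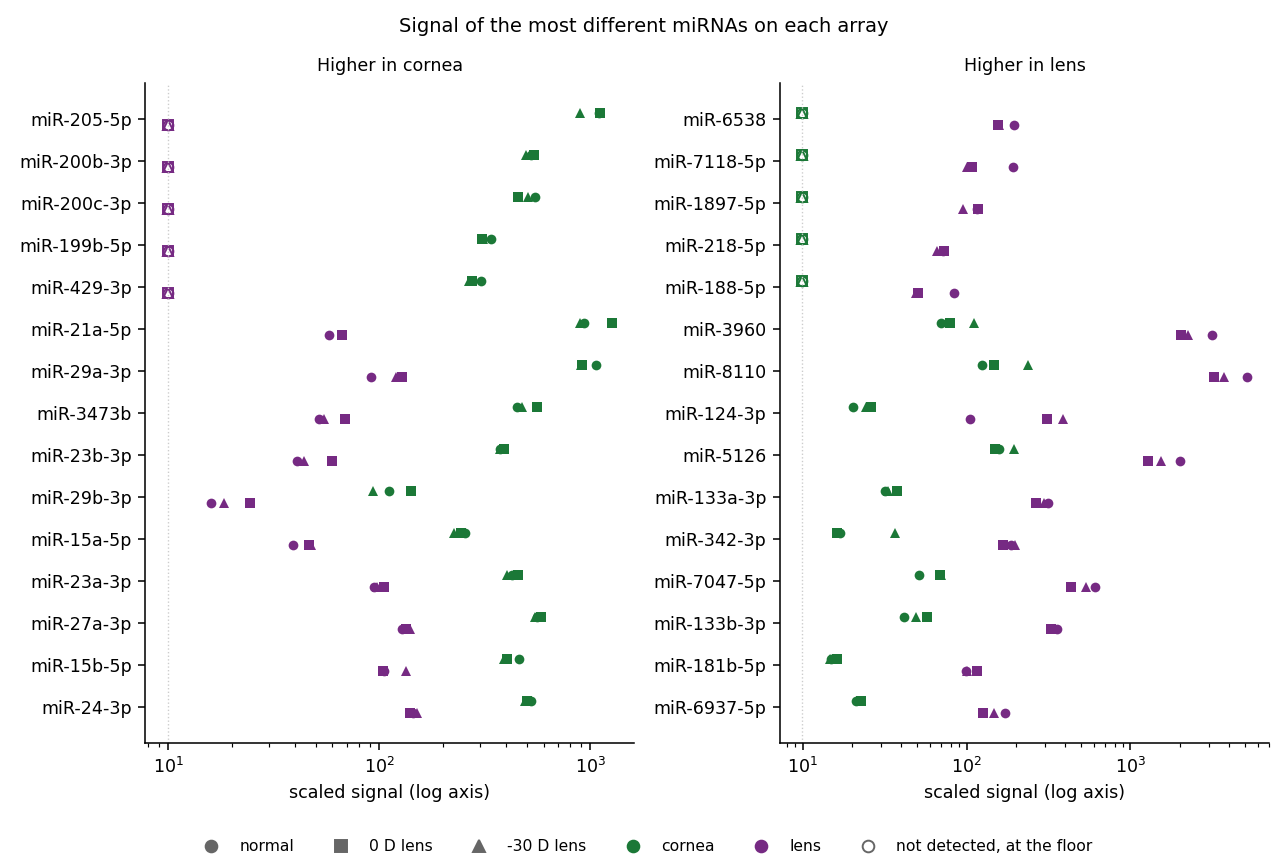
Scaled signal on a log axis on each of the 6 arrays for the miRNAs with the largest lower bounds (upper 5 rows) and the largest log2 differences among those detected on all 6 arrays (lower 10 rows), higher in cornea on the left and in lens on the right; symbols give the lens group, green is cornea, purple is lens, and open symbols are undetected and stand at the floor of 9.93. No cornea symbol overlaps with a lens symbol in any row, and the largest spread within a tissue is that of miR-124-3p in lens, from 105 to 390.

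On the lens side, the largest differences among miRNAs detected on all 6 arrays were those of miR-3960 and miR-8110. miR-3960 read 69.5, 79.6 and 112 in cornea and 3152, 2030 and 2261 in lens, a log2 difference of -4.84 ± 0.25 (adjusted p = 1.1e-04). miR-8110 read 124, 146 and 236 in cornea and 5138, 3241 and 3730 in lens (-4.61 ± 0.29, adjusted p = 2.1e-04). miR-5126 differed by -3.25 ± 0.17, miR-7047-5p by -3.06 ± 0.20 and miR-6937-5p by -2.73 ± 0.14, the last with only 1 of its 2 probes brighter in lens. Of the miRNAs on no cornea array, miR-6538 read 196, 156 and 158 in lens and was at least 8.60-fold higher, miR-7118-5p at least 6.47-fold and miR-1897-5p at least 5.53-fold. miR-218-5p, a motor neuron miRNA, read 71.5, 72.5 and 65.8 in lens and was at least 3.55-fold higher, and miR-188-5p at least 3.05-fold. These miRNAs on no cornea array were all called, but they entered the test only through lens, so that the call adds nothing to detection and bound.

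Several of these were rich in G and C. Of the 13 tested miRNAs with a RefSeq sequence of at least 70% G and C, 12 were higher in lens, 1 was not called and none was higher in cornea. Among all tested miRNAs, 40.0% were higher in lens. Of the 12, miR-3102-5p, miR-6538, miR-6931-5p and miR-8101 were on no cornea array and entered the test only through lens. Only 1 of the 2 probes of miR-6931-5p was brighter in lens. The median content of G and C was 59.1% over the 55 miRNAs higher in lens, 45.5% over the 61 higher in cornea and 48.0% over all 141, and 52.2% over the 1608 matched miRNAs of the whole array. Across the 141 miRNAs the content correlated with the log2 difference at a Pearson r of -0.52 and a Spearman rho of -0.47, and across the 81 detected on all 6 arrays at -0.49 and -0.45. This is a description across miRNAs, which share arrays, labelling and scaling and are no replicates. The lens arrays also had the lower median detected signal, 21 to 26 before scaling against 31.6 to 35.3 in cornea, and the part of array and labelling in the relation was not tested.

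**Figure D4:**
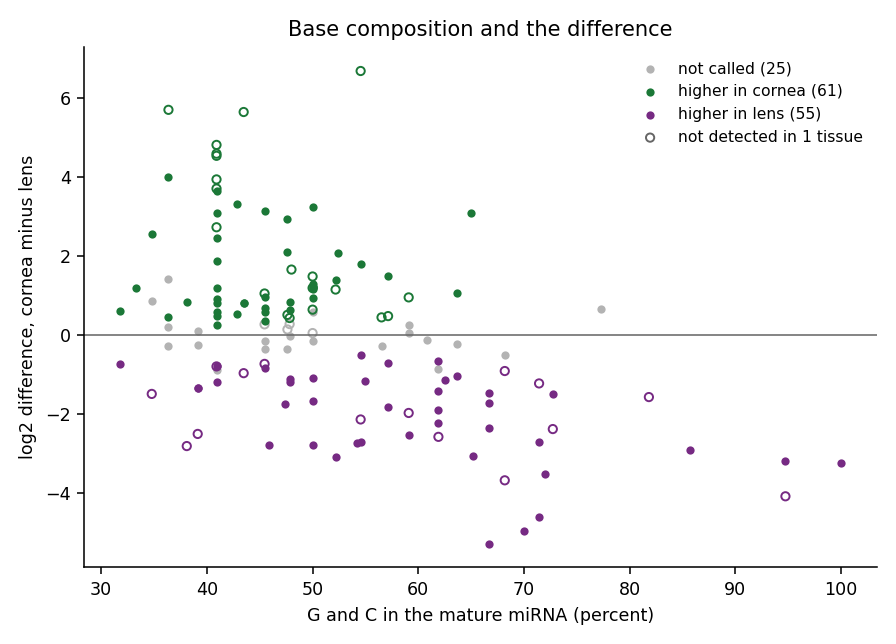
Log2 difference, cornea minus lens, against the percent of G and C in the mature miRNA for the 141 tested miRNAs with a RefSeq sequence; each point is 1 miRNA, colors give the call and open points are miRNAs undetected in 1 tissue, whose difference rests on the floor. The points fall from left to right with a Pearson r of -0.52, and 12 of the 13 miRNAs at 70% or more are higher in lens.

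miR-204-5p, made from Trpm3 and known from lens, ciliary body and pigment epithelium, was the ninth miRNA of lens by signal. It read 662, 749 and 707 in cornea and 1198, 1349 and 1247 in lens (-0.84 ± 0.09, adjusted p = 8.8e-04), and the call was lost without scaling (-0.22, adjusted p = 0.30). The other strand of its paralog, miR-211-3p, read 432, 415 and 326 in lens and was on 1 cornea array at 8.51, and in the other ocular tissues it lay between 14.1 and 77.1. miR-211-5p itself was not called between cornea and lens (-0.14 ± 0.45, adjusted p = 0.79), so that the 2 strands of 1 hairpin had different patterns. In lens the 3p strand gave the brighter probe signal and in iris the 5p strand, at 49.0 to 77.1 for 3p and 772 to 906 for 5p, although signals of different probes are not on 1 scale.

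The 4 miRNAs of striated muscle were all called higher in lens, and 3 of them without scaling, beside 40.0% of all tested miRNAs called higher in lens. miR-133a-3p read 31.8, 37.5 and 33.0 in cornea and 315, 267 and 298 in lens (-3.10 ± 0.13, adjusted p = 7.1e-05), and miR-133b-3p read 41.5, 57.7 and 49.1 in cornea and 355, 325 and 340 in lens (-2.79 ± 0.15, adjusted p = 1.1e-04). miR-1a-3p read 69.0, 77.7 and 65.3 in lens and was on 2 cornea arrays, at 22.8 and 13.9. miR-206-3p, the skeletal muscle member, read 18.1, 16.7 and 14.8 in lens and was on no cornea array, with only 1 of its 2 probes brighter in lens. It entered the test only through lens and had no bound above equal signal, so that its call adds nothing to detection. The list summed to 686 to 757 in lens, 73.3 to 118 in cornea, 84.4 to 96.4 in iris and 153 to 330 in sclera, and the part of muscle in the lens samples was not tested. On the printed total signal both miR-133 miRNAs turned direction, to 1.33 and 1.22. That printed value was 340 to 434 for miR-133a-3p in cornea, whereas all its probes together summed to 19.7 to 24.9 before scaling, and each of its 2 probes was brighter on every lens array than on every cornea array.

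Neuron and retina miRNAs were uneven. miR-124-3p read 20.2, 26.2 and 24.3 in cornea and 105, 309 and 390 in lens (-3.31 ± 0.34, adjusted p = 9.0e-04), lower in the lens of normal eyes than in both worn groups. miR-183-5p and miR-96-5p of the photoreceptor cluster read 76.9, 182 and 268 and 54.4, 136 and 158 in lens, in the same order of lens groups, and 76.1 to 88.1 and 100.0 to 124 in cornea, and neither was called. The third of the cluster, miR-182-5p, was on every cornea array at 26.1 to 38.4 and on no lens array. It was called higher in cornea but entered the test only through cornea. miR-9-5p, miR-129-5p, miR-129-2-3p and miR-7a-5p were on none of the 6 arrays. Of the 10 on the list, 5 were tested, 1 was higher in cornea and 1 in lens, and the sum was 258 to 268 in cornea and 251 to 817 in lens, beside 26292 to 29378 in retina and 55.9 to 121 in iris. The part of retina or neurons in the lens samples was not tested. miR-342-3p differed by -3.09 ± 0.24 and miR-181b-5p by -2.79 ± 0.09, both higher in lens. Of the 4 miR-181 miRNAs, known from neurons and lymphocytes, 2 were tested and both were higher in lens, beside 40.0% of all tested miRNAs. For miR-181b-5p the sign turned on the printed total signal, to 0.45.

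Some families with 1 seed moved together and others did not. Among the miRNAs with a sequence, 20 seeds had 2 or more tested members, with 56 members in all. In 8 of these families all members were higher in cornea, in 2 all were higher in lens, and in 6 some members were called in each direction. Over all tested miRNAs, 41.8% were higher in cornea and 40.0% in lens. The families with the seeds AACACUG and AAUACUG hold only miR-200 miRNAs on no lens array, so that their direction was fixed by detection. The same holds for single members of other families, miR-152-3p, miR-322-5p and miR-19a-3p. For the seeds of miR-193a-3p and miR-34b-5p, 1 of the directions rests on that miRNA alone, which was undetected in 1 tissue. The let-7 family was split. Of 8 tested members, 6 were higher in cornea, by 0.45 for let-7a-5p to 0.97 for let-7b-5p, let-7g-5p was not called (0.21 ± 0.09), and let-7e-5p read 178, 179 and 208 in cornea and 422, 446 and 413 in lens (-1.18 ± 0.11, adjusted p = 6.3e-04). let-7e-5p shares a cluster at chr17:17830194-17830840 with miR-99b-5p and miR-125a-5p, and all 3 were higher in lens. miR-125a-5p read 47.4, 47.8 and 47.5 in cornea and 154, 150 and 151 in lens (-1.67 ± 0.09), whereas miR-125b-5p, with the same seed from other loci, read 380 to 424 and 418 to 489 and was not called (-0.15 ± 0.09, adjusted p = 0.17). Without scaling 7 let-7 miRNAs were higher in cornea and none in lens.

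Close relatives parted in other families too. Of the 5 miRNAs of the miR-125, miR-99 and miR-100 list, 3 were higher in lens, 1 in cornea and 1 was not called. The one higher in cornea was miR-100-5p, which read 43.1, 36.1 and 59.2 in cornea and 16.7, 18.8 and 20 in lens (1.29 ± 0.15), whereas miR-99a-5p, with the same seed, differed by -1.09. Without scaling 1 of the list was higher in each tissue. miR-193b-3p read 119, 86.7 and 108 in cornea and 644, 510 and 661 in lens (-2.54 ± 0.09, adjusted p = 4.8e-05). miR-193a-3p, with the same seed, was on every cornea array at 26.4 to 30.1 and on no lens array. Its bound was only 1.1-fold and it entered the test only through cornea, so that its direction rests on detection. The strands of a single hairpin also differed in direction. Of miR-652, the 5p strand read 57.0, 56.5 and 50.9 in cornea and 123, 121 and 117 in lens (-1.13 ± 0.09, adjusted p = 3.9e-04), whereas the 3p strand read 28.9, 31.3 and 37.6 in cornea and was on 1 lens array at 15.1 (adjusted p = 0.0019 towards cornea).

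The miR-17/92 and paralogous clusters were split by locus. miR-18a-5p, miR-19a-3p and miR-20a-5p of the cluster on chromosome 14 were all higher in lens, and so were miR-19b-3p, miR-92a-3p and miR-20b-5p, with log2 differences of -0.71 for miR-92a-3p to -1.35 for miR-20a-5p among those detected on all 6 arrays. miR-18a-5p and miR-19a-3p were on no cornea array and entered the test only through lens, so that their calls add nothing to detection. Only 1 of the 2 probes of miR-18a-5p was brighter in lens. The split is thus described by the miRNAs detected in both tissues. The 3 miRNAs of the paralogous cluster on chromosome 5, miR-25-3p, miR-93-5p and miR-106b-5p, were higher in cornea, with miR-25-3p at 81.1, 75.6 and 66.7 in cornea and 32.7, 30.3 and 32.7 in lens (1.22 ± 0.11, adjusted p = 5.6e-04). miR-106b-5p and miR-20a-5p, which share the seed AAAGUGC, thus differed in opposite directions. Without scaling 3 of the list were called higher in lens and 3 higher in cornea.

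**Figure D5:**
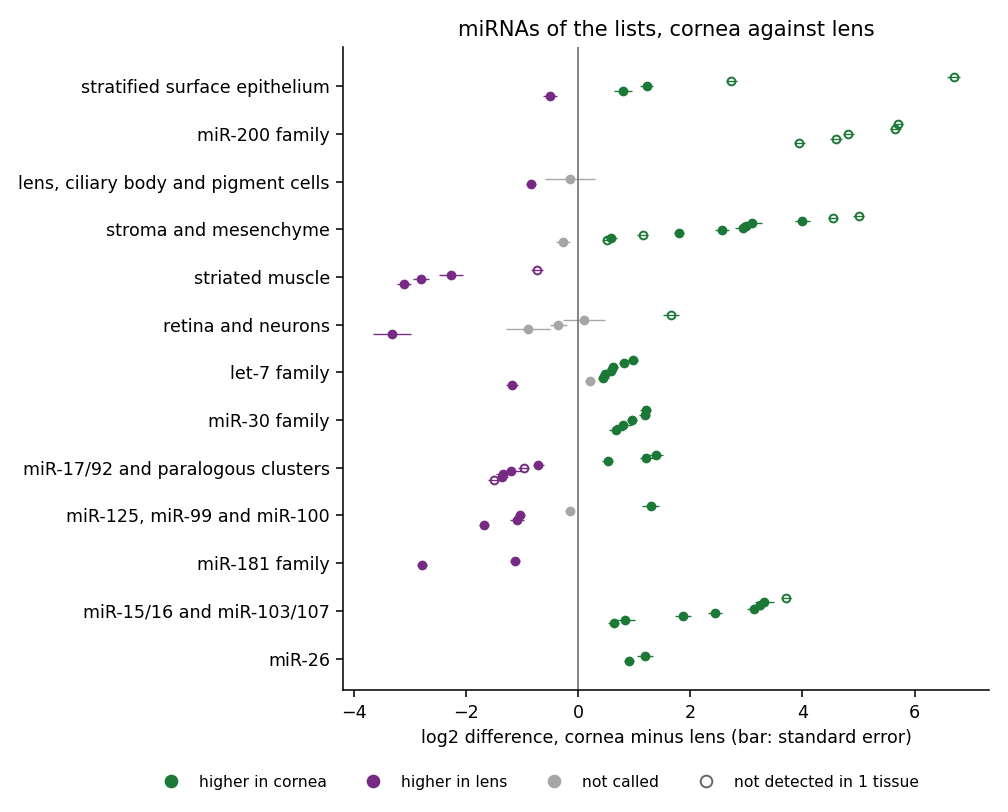
Log2 difference, cornea minus lens, with its standard error for the tested members of 13 miRNA lists, 3 array pairs each; colors give the call, and open points are miRNAs undetected in 1 tissue, whose difference rests on the floor. The miR-200, stroma, miR-15/16, miR-30 and miR-26 lists have no member called higher in lens, the striated muscle and miR-181 lists have no member called higher in cornea, and the let-7 and miR-17/92 lists lie on both sides of 0.

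Some bright miRNAs were close in both tissues. Of the 19 miRNAs on all 6 arrays that were not called, 10 were within 2-fold in every lens group, among them miR-125b-5p, let-7g-5p and miR-151-5p, which read 140 to 165 in cornea and 117 to 151 in lens. miR-130a-3p, which was shared high in both tissues, read 619 to 707 in cornea and 530 to 563 in lens (0.27 ± 0.09, adjusted p = 0.046), but against the other tissues its sign turned without scaling (-0.42).

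As a whole profile, cornea was closer to iris, choroid and sclera than to lens, whereas the nearest of the 5 other ocular tissues to lens was cornea. Over the 79 miRNAs detected on all 24 arrays, the Spearman rho between cornea and lens was 0.623 to 0.653 within the 3 lens groups. It was 0.784 to 0.805 between cornea and iris, 0.793 to 0.824 between cornea and choroid and 0.789 to 0.809 between cornea and sclera, and only 0.567 to 0.586 between cornea and retina. For lens, the rho with cornea was above those with choroid (0.570 to 0.609), sclera (0.533 to 0.598), iris (0.531 to 0.589) and retina (0.413 to 0.452). Arrays of the same tissue in different lens groups reached 0.963 to 0.982 for cornea and 0.986 to 0.991 for lens. These are descriptions across miRNAs on arrays that share slide and scaling.

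The tissue difference was much alike in the 3 lens groups. Of the 93 miRNAs on all 6 arrays, 84 had the same sign in every lens group, and the median range of the log2 difference over the groups was 0.39. The range passed 1 for 18 miRNAs and was widest for miR-466f-3p, at 0.30, 0.84 and 2.65, and miR-211-5p, at -0.25, -1.20 and 1.03 for normal, 0 D and -30 D eyes. When the study's criteria for a change were applied to cornea over lens, a ratio over 2 where both arrays detected a miRNA or over 5 where 1 did, 66 miRNAs were higher in cornea and 70 in lens in normal eyes, 64 and 75 in 0 D eyes and 92 and 62 in -30 D eyes. Of these, 49 were higher in cornea and 55 higher in lens in all 3 groups, and 100 of the 104 were also called by limma. Both counts come from the same 6 arrays, and 81.8% of the tested miRNAs were called, so that the overlap is no separate support. With the common floor in place of 0.1 for undetected miRNAs, 30 and 38 met the criteria in all 3 groups. Without scaling the counts in all 3 groups were 62 and 42.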

How the data were processed

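Agilent one-color mouse miRNA arrays of cornea and lens (3 each) were analysed, with 12 arrays of iris, retina, choroid and sclera for the shared miRNAs. The deposited scanner files hold intensity values made by the authors with Agilent Feature Extraction (version 10.7.1.1 per the labels, from 100 ng of total RNA), background-subtracted and combined per probe, and their table named normalized holds the same sums without scaling (largest difference 0.023). Its 24 value columns could be tied to a tissue but to no single array.

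For each miRNA, total probe signals above 3 times their error were summed, and each array was scaled so that 79 miRNAs, those that every one of the 24 arrays detected, had 1 common 75th percentile. Undetected miRNAs and values below it were set to a common floor of 9.93, the highest of the lowest detected signals, before log2 was taken, so that fitted differences of miRNAs undetected in 1 tissue depend on this floor. limma 3.58.1 in R 4.3.3 (lmFit, eBayes) was fitted with lens group as a block to miRNAs detected on at least 3 arrays, over 6 arrays for cornea against lens and over 24 arrays for both against the other ocular tissues, with Benjamini-Hochberg adjustment over all miRNAs tested and calls at 0.05. The pairing comes from the lens group in the labels, which is also the slide. The fit was tested on simulated data.

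No spot of the 6 arrays was saturated, and the error of a detected signal was 6.05% to 33.1% of it. The number of arrays limits the precision. The miRNA names are those of the array. Named were, besides list members, the 10 largest differences in each direction among called miRNAs on all 6 arrays, the 5 largest bounds in each direction, the 10 brightest of each tissue, and the 10 highest and 5 lowest against the other tissues. miR-31-3p, miR-212-3p, miR-130a-3p, miR-211-3p, miR-466f-3p, miR-151-5p, miR-193a-3p, miR-193b-3p, miR-652-3p and the miR-140 pair were chosen after their values were seen. The members and lists were chosen with earlier results of these data known. The brain arrays entered only the scaling and the fit of the spread.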

Additional observations from a re-analysis of the deposited data

Results flagged for a closer look

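Among the miRNAs named in the comparisons and detected on all 6 arrays, 12 differed from the normal array in one direction on both worn cornea arrays and in the other direction on both worn lens arrays. Of all 93 miRNAs on all 6 arrays, only miR-345-5p and miR-709 did so besides them. The count was not set against that of signs without a lens effect, so that it is no result about these miRNAs. The smallest of the differences below lie under the error of a single signal, 6.05% to 33.1%. The difference between the tissues in their response to lens wear was not tested, since each tissue has 1 array per lens group. Given for each is the smallest of its 4 log2 differences from the normal array, in size. It was 0.41 for miR-1224-5p, 0.24 for miR-8110, 0.19 for miR-3960, 0.19 for miR-7047-5p, 0.079 for miR-6937-5p, 0.061 for miR-133b-3p, 0.053 for miR-133a-3p, 0.042 for miR-20b-5p and 0.0027 for miR-125a-5p, which were higher in the cornea and lower in the lens of worn eyes. It was 0.22 for miR-29a-3p, 0.066 for miR-15a-5p and 0.0021 for miR-183-5p, which were lower in the cornea and higher in the lens of worn eyes. For miR-1224-5p the cornea arrays differed from normal by 0.42 at 0 D and 1.56 at -30 D and the lens arrays by -0.55 and -0.41. For miR-183-5p the lens arrays differed by 1.24 and 1.80, and the cornea arrays by -0.21 and by the 0.0021 above.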

How the results depend on the processing

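For cornea against lens, the count of 135 calls stayed within 1.5 times in every alternative run that kept the 165 miRNAs and the threshold. It was 135 without the replicate block (71 higher in cornea and 64 higher in lens) and 128 to 133 without 1 of the 3 pairs. Limited to the 93 miRNAs detected on all 6 arrays it was 73 (38 and 35), and with an added 2-fold limit 42 were higher in cornea. Of the 135 calls, 116 kept their call and direction without scaling, 110 after quantile normalization and 89 on the printed total gene signal, where 13 had the opposite sign, among them miR-133a-3p (1.33), miR-133b-3p (1.22) and miR-181b-5p (0.45). miR-31-5p turned to 0.12 without scaling. For both tissues against the rest, the block left the count at 212 (86 and 126 without it), and leaving out 1 lens group gave 201 to 214. Without scaling 39 were higher and 195 lower, with each array's own floor 168 were higher, and with a floor of 0.1 and after normexp 205 and 199 were lower. Limited to miRNAs detected on all 18 arrays 83 were called (39 and 44), and with a 2-fold limit 96 (45 and 51). On the printed signal miR-100-5p (1.09), miR-211-5p (0.32), miR-361-5p (1.71) and miR-3968 (-0.63) turned. By the study's criteria with the common floor, 30 were higher in cornea in all 3 lens groups. Scaling by the 75th percentile of all miRNAs was not run, because it was not above 0 on 1 array, and the deposited table could not be fitted with the block, because its columns name no lens group. It was fitted without the block, chosen after seeing the data, and gave 135 calls for cornea against lens and 212 for both tissues. The cause of these changes was not tested. miRNAs near the floor have no order among themselves.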
